A study of Arabidopsis thaliana with 9 samples.

Results

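Class III peroxidases are secreted, haem-containing enzymes that plants encode as a large gene family. In the cell wall they use hydrogen peroxide to couple phenolic compounds, which stiffens walls and polymerises lignin, and they can also produce reactive oxygen species that loosen walls. Some family members are known for transcripts that accumulate after wounding or on contact with microbes, and others for roles in growing root hairs or lignifying cells. The genes described here are 10 listed loci linked to wounding, defence or lignification: AT1G14540 (PER4), AT1G14550 (PER5), AT2G18150 (PER15), AT3G49110 (PER33), AT3G49120 (PER34), AT4G36430 (PER49), AT5G05340 (PER52), AT5G06720 (PER53), AT5G39580 (PER62) and AT5G64120 (PER71). A locus was kept where the array's probe annotation maps a probe set to it, which held for 6 of the 10. PER4, PER33, PER34 and PER53 were not analysed here. The 6 loci lie on 6 of the 22746 probe sets tested, of which 5 belong to 1 gene and 1 is shared by PER15 and its chromosomal neighbour AT2G18140 (PER14). That shared probe set cannot tell the 2 genes apart.

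RNA came from the last 3 mm of Arabidopsis thaliana roots, taken 5 days into seedling growth, with 3 arrays for each of 3 genotypes. These were wild type of the Col-0 ecotype, an erf115 mutant in that ecotype (the insertion line SALK_021981, labelled erf115ko), and ERF115OE, in which the p35S promoter, constitutive per the labels, drives the ERF115 open reading frame in Col-0. ERF115 belongs to the ethylene response factors, a family of plant transcription factors. Tips of all groups were cut with scalpels, and whether the response to cutting differed between genotypes was not tested. Values are log2 levels after RMA, which removes background, equalises the distributions of the arrays and gives 1 value for each probe set. A difference of 1 on this scale is a doubling, and differences close to background come out too small. Array medians lay between 5.04 and 5.13. No probe set was named as ERF115, so the genotype labels were not checked against that gene. Nothing in the labels says that replicates came from separate cultures, so errors and p-values measure how these samples differ among themselves, and that spread may be technical. In whole root tips, a change in the number of cells that express a gene and a change in RNA per cell cannot be told apart.

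Outside the members, a gene is called measured here where a probe set was named for that gene alone. A gene called not measured may still lie on a shared or unnamed probe set. The tissue markers listed for root tips were thinly covered. Of 7 stem cell niche markers, AGL42 and BBM were measured, with levels from 4.58 to 5.31 and from 4.67 to 5.43 over the 9 arrays. No root cap, xylem or phloem marker was measured. RCA, the 1 measured gene of 6 leaf and shoot markers, lay between 4.22 and 4.82.

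The 6 probe sets fell into a group of 3 that stood higher in ERF115OE and a group of 3 that did not. PER49, PER62 and PER5 were 8.50-fold, 6.58-fold and 2.03-fold higher in ERF115OE than in Col-0, while the probe set of PER15 and PER14, PER52 and PER71 overlapped between these genotypes. None of the 6 passed the test between erf115ko and Col-0. The members were chosen partly for their rise in ERF115OE, so the values of that line are given as a description and without p-values. Calls of members in that line are likewise a description and no test of them. In the fit across all probe sets, 3 of the 6 were called higher in ERF115OE than in Col-0 and 0 lower, where 3.75% of all probe sets were called higher, 1.7% lower and 5.46% in either direction. The median difference was 0.64 over the members and -0.02 over all probe sets (log2). The count of calls and the member median both follow from the choice of members.

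PER49, a peroxidase of the secreted family, was the member that stood furthest from wild type. Its levels were 3.54, 3.59 and 3.60 in the Col-0 arrays, 3.36, 3.76 and 3.76 in the erf115ko arrays, and 6.63, 7.07 and 6.28 in the ERF115OE arrays. The lowest ERF115OE array was far above the highest of the other 6 arrays, which all lay in a narrow band. The difference from Col-0 was 3.09 (SE 0.17) and that from erf115ko 3.04 (SE 0.17). In Col-0, 35.2% of all probe sets had a lower mean level than this one, so it started low on the array.

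PER62, known to act in root hair growth at low temperature, showed the same separation. It lay at 3.10, 3.56 and 3.88 in Col-0, at 3.83, 3.52 and 3.52 in erf115ko, and at 5.71, 6.40 and 6.58 in ERF115OE. No array of the overexpressor overlapped with the others. The differences were 2.72 (SE 0.23) from Col-0 and 2.61 (SE 0.23) from erf115ko.

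PER5 and its neighbour PER4 form a gene pair known to respond to microbial elicitors, and only PER5 of the pair had a mapped probe set. Its levels were 4.26, 4.70 and 4.72 in Col-0, 4.95, 4.95 and 4.61 in erf115ko, and 5.81, 5.48 and 5.44 in ERF115OE. The overexpressor stood apart from both other genotypes, by less than for PER49 and PER62. The difference was 1.02 (SE 0.15) from Col-0 and 0.74 (SE 0.15) from erf115ko. The second of these was no longer called without erf115ko replicate 1, erf115ko replicate 3 or ERF115OE replicate 1, with differences of 0.62 to 0.81 when any single array was left out.

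The shared probe set of PER15 and PER14 read 2.84, 3.04 and 3.59 in Col-0, 3.04, 2.95 and 2.97 in erf115ko, and 3.10, 3.58 and 3.57 in ERF115OE. Its ERF115OE arrays overlapped with Col-0, where replicate 3 was as high as the highest overexpressor array, and lay just above all erf115ko arrays. The differences from Col-0 and erf115ko were 0.27 (SE 0.18) and 0.43 (SE 0.18). Between ERF115OE and erf115ko the call changed with array weights, which called this probe set higher.

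PER52, known for its part in lignin synthesis in the stem, gave readings near the bottom of the array, with 9.89% of all probe sets lower in Col-0. They were 2.17, 2.48 and 2.48 in Col-0, 2.36, 2.30 and 2.36 in erf115ko, and 2.36, 2.46 and 2.16 in ERF115OE. The 3 genotypes overlapped throughout, and the difference between ERF115OE and Col-0 was -0.05 (SE 0.10), with a range from -0.16 to 0.028 across single arrays left out, which turned its sign. At readings this low a small difference would not be detectable after RMA.

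PER71, known to restrain growth when cell walls are damaged, varied most within a genotype. Its levels were 4.75, 4.86 and 5.82 in Col-0, 5.00, 5.65 and 5.96 in erf115ko, and 4.68, 5.30 and 4.69 in ERF115OE. The spread among Col-0 arrays, a range of 1.07, was larger than any difference between its genotype means. ERF115OE had the lowest mean, 0.25 (SE 0.31) below Col-0 and 0.64 (SE 0.31) below erf115ko, and its arrays overlapped with both. The difference from Col-0 ranged from -0.46 to 0.083 with single arrays left out, and it turned positive without Col-0 replicate 3.

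**Figure D1:**
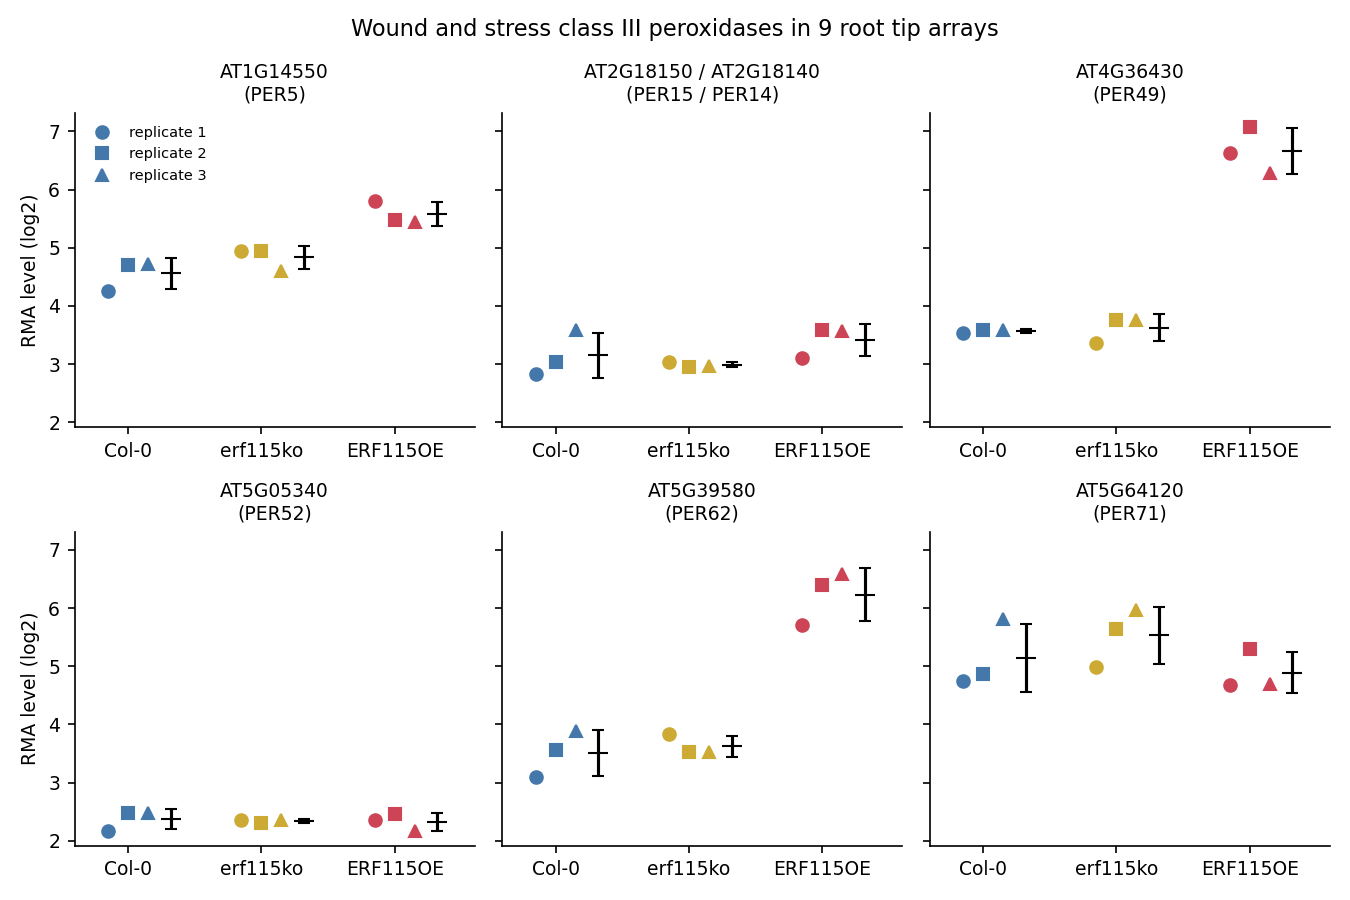
RMA level (log2) of the 6 member probe sets in each array, with 1 panel per probe set, genotypes along the x axis, replicates by symbol, and black bars for mean ± SD over 3 arrays. PER49, PER62 and PER5 stand apart in ERF115OE, where PER49 lies between 6.28 and 7.07, while in the other 3 panels the ERF115OE and Col-0 arrays overlap.

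The order of the levels therefore differed between members. For PER49 and PER62 it was ERF115OE above erf115ko and Col-0, which did not differ beyond their spread. PER5 had the order ERF115OE, erf115ko, Col-0, and its neighbours erf115ko and Col-0 overlapped. For PER71 the order was erf115ko, Col-0, ERF115OE, with overlap between each pair, and the last 2 changed places without Col-0 replicate 3. The PER15 and PER14 probe set had the order ERF115OE, Col-0, erf115ko, in which both neighbouring pairs overlapped and only the ends were apart. PER52 had overlapping arrays in each pair. Between ERF115OE and erf115ko, 3 of the 6 were called higher and 0 lower, where 2.65% of all probe sets were called higher, 1.03% lower and 3.68% in either direction. This comparison uses the same overexpressor arrays as the one with Col-0. Groups did not overlap, with ERF115OE higher, for 3 members against Col-0 and for 4 against erf115ko, where 9.26% and 9.58% of all probe sets did so. No member was wholly lower in ERF115OE, against 10.6% of all probe sets in the comparison with Col-0 and 10.6% in that with erf115ko.

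The mutant arrays were not used to choose the members, so erf115ko was tested against Col-0. This test shares its Col-0 arrays with the comparison that chose them. In limma, 0 of the 6 passed, 0 had an unadjusted p under 0.05, and 0.0132% of all probe sets passed (0.0044% higher and 0.00879% lower), so few genes of any kind were called. No member had groups that did not overlap, where 4.19% of all probe sets were wholly higher and 3.96% wholly lower in the mutant. The limma adjusted p was 0.9996 for each of the 6.

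The 95% intervals of the differences between erf115ko and Col-0 give the sizes that remain possible. For PER49 the difference was 0.05 with an interval from -0.33 to 0.43. It was 0.11 for PER62, from -0.40 to 0.62, and 0.28 for PER5, from -0.05 to 0.60. The probe set of PER15 and PER14 stood at -0.16 (interval -0.56 to 0.23) and PER52 at -0.04 (interval -0.26 to 0.18). PER71 had the widest interval, from -0.29 to 1.07 around 0.39, which includes a doubling. Because PER49, PER62, PER52 and the probe set of PER15 and PER14 read low in Col-0, a fall below the wild-type level would come out compressed in these values.

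**Figure D2:**
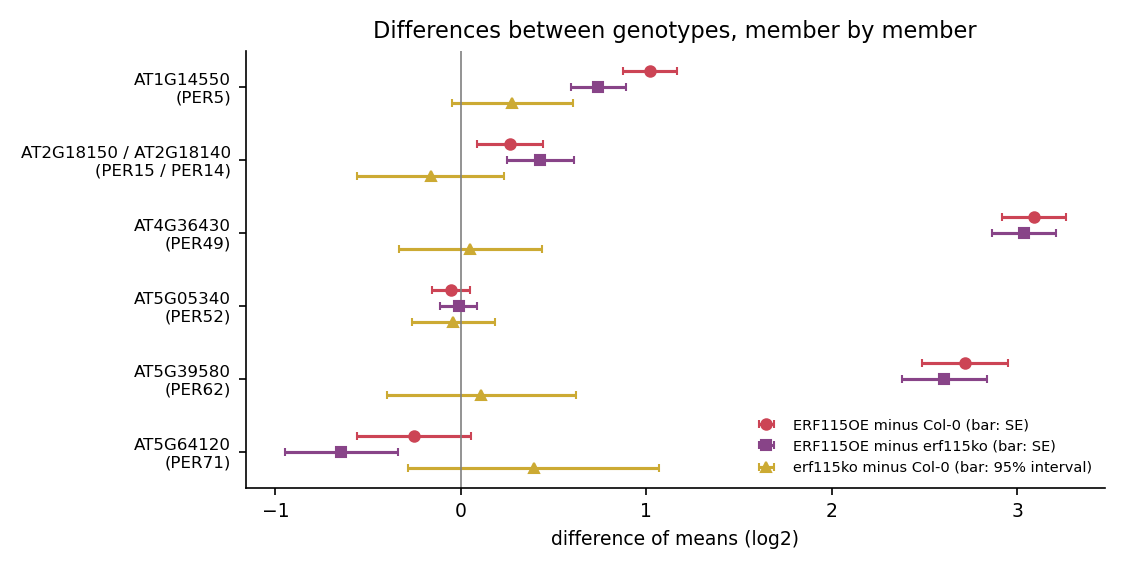
Differences of genotype means (log2, x axis) for the 6 member probe sets, with SE bars for the comparisons that use ERF115OE and 95% interval bars for erf115ko minus Col-0. The mutant intervals all cross 0, and PER49 and PER62 lie beyond 2 in both comparisons of the overexpressor.

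Some arrays held the highest value of their genotype for several members. In Col-0, replicate 3 held the highest value for 5 of the 6 probe sets and replicate 1 for 0, and in ERF115OE replicate 2 held the highest for 4. In erf115ko, replicate 1 held the highest value for 4, but it shared that value with replicate 2 for PER5 and with replicate 3 for PER52. Its mean deviation from the genotype mean was -0.07. The mean over the 6 probe sets lay between 3.44 and 4.01 in the Col-0 arrays, between 3.75 and 3.86 in erf115ko and between 4.71 and 5.05 in ERF115OE.

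The members were set beside the rest of their family to see which peroxidases share the overexpressor's pattern. Of 73 class III peroxidase loci listed, 62 lay on 59 probe sets, 55 of them with 1 gene. By difference between ERF115OE and Col-0, PER49 and PER62 took ranks 1 and 2 of the 59, PER5 rank 7, the PER15 and PER14 probe set rank 22, PER52 rank 42 and PER71 rank 53. This order is a description, since the members were chosen by it. The listed genes were therefore at the top, the middle and the low end of the family.

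**Figure D3:**
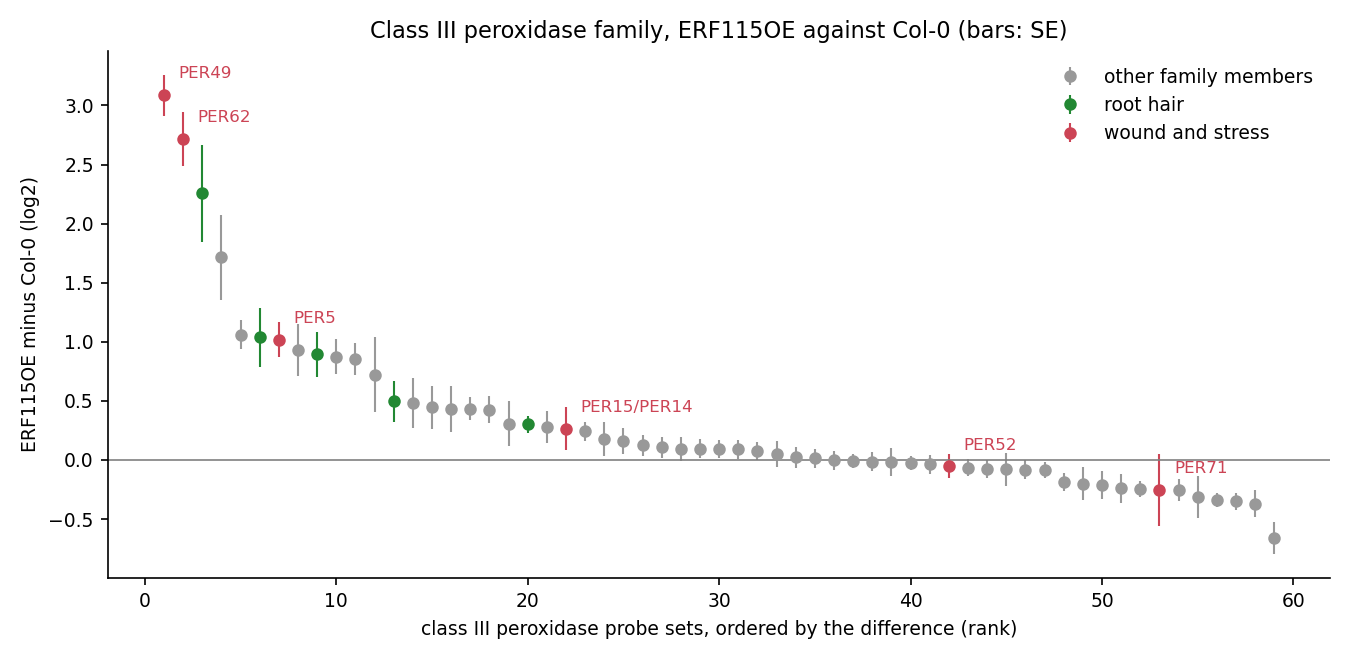
Difference between ERF115OE and Col-0 (log2, y axis, with SE bars) for 59 class III peroxidase probe sets in order of size (x axis, rank). PER49 and PER62 hold the first ranks, and PER52 and PER71 lie at or below 0.

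Some peroxidases of root hairs rose in ERF115OE as well. Of 9 listed, 5 were measured, 4 were called higher and 0 lower, where 3.75% of all probe sets were called higher and 1.7% lower. The gene lists were chosen with earlier results of these data known, so such counts are no independent test. The median difference of the 5 was 0.90, against -0.02 over all probe sets. PER8 rose 4.78-fold (2.26, SE 0.41, limma adjusted p = 0.00932), PER35 by 1.04 (SE 0.25, adjusted p = 0.0374), PER44, known to act in root hair growth, by 0.90 (SE 0.19, adjusted p = 0.0209) and PER57 by 0.30 (SE 0.07, adjusted p = 0.0393). With 1 array left out, the number called higher lay between 1 and 5. PER8 passed each time, and PER44 did not pass without Col-0 replicate 1 or 2 or ERF115OE replicate 2 or 3. PER35 passed when the array left out was Col-0 replicate 3, and PER57 when it was Col-0 replicate 3 or erf115ko replicate 1, but neither passed without any other single array. Between ERF115OE and erf115ko, 1 of the 5 was called higher, which was PER8 (limma adjusted p = 0.0173). None of the 5 passed in erf115ko against Col-0 in limma, and 0 had an unadjusted p under 0.05 there.

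Among the other 45 measured peroxidases, of 54 listed, 5 were higher and 3 lower in ERF115OE than in Col-0, with a median of 0.02. Over all probe sets 3.75% were called higher and 1.7% lower. Shared probe sets, such as that of PER22 and PER23 given below, are not in these counts. PER37, known from plants that overexpress it as an inhibitor of growth, rose by 1.06 (SE 0.12, adjusted p = 0.000916). PER21 rose by 0.87 (SE 0.15, adjusted p = 0.00595) and PER66, known from lignifying xylem vessels, by 0.85 (SE 0.14, adjusted p = 0.00509). PER63 fell by 0.34 (SE 0.06, adjusted p = 0.00734). The largest fall was that of PER40 (-0.66, SE 0.13, adjusted p = 0.0168). PER37, PER21, PER66 and PER63 passed with any single array left out, and the counts then lay between 3 and 7 higher and between 1 and 4 lower. The low values were 3 higher without Col-0 replicate 1, Col-0 replicate 2 or ERF115OE replicate 2, and 1 lower without ERF115OE replicate 2. Between ERF115OE and erf115ko, 3 of the 45 were called higher and 2 lower, where 2.65% of all probe sets were called higher and 1.03% lower. Whether the members differ in their response from the root hair and other peroxidases was not tested, because the members were chosen by their response.

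The partners of peroxidases in lignin and reactive oxygen metabolism were covered by few probe sets. Of 10 respiratory burst oxidase homologues, which make the superoxide from which hydrogen peroxide forms, 3 were measured and 1 passed as higher in ERF115OE. It was RBOHE, known from pollen development, whose levels were 4.92, 4.77 and 4.81 in Col-0, 4.78, 4.92 and 5.14 in erf115ko, and 5.49, 5.52 and 5.80 in ERF115OE. The rise was 0.77 (SE 0.11, limma adjusted p = 0.00261). All 3 homologues passed without Col-0 replicate 3, and 2 did without ERF115OE replicate 1. Of 2 measured genes of monolignol synthesis, 1 passed, the enzyme HCT (0.40, SE 0.09, adjusted p = 0.035). The other, CCR2, had a larger difference with groups apart (0.45, SE 0.12) but an adjusted p of 0.0685. HCT did not pass without Col-0 replicate 1 or 2, erf115ko replicate 3 or ERF115OE replicate 1 or 2 (adjusted p up to 0.121). It also lost its call with only the 6 arrays of ERF115OE and Col-0 in the fit.

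Of the 2 transcription factors known to repress peroxidase genes, UPB1 in the root and KUA1 in the leaf, KUA1 rose by 0.29 (SE 0.07, adjusted p = 0.0409) and UPB1 stood at -0.18 (SE 0.12, adjusted p = 0.478). The call of KUA1 was lost with each array centred on its median and, among single arrays left out, kept only without Col-0 replicate 2. The laccase LAC16 (0.13, SE 0.07, adjusted p = 0.343), the receptor kinase SGN3 of the Casparian strip (0.10, SE 0.15, adjusted p = 0.772) and the defence regulator WRKY53 (0.39, SE 0.24, adjusted p = 0.419) did not pass. LAC16 was the 1 measured gene of 17 laccases, and SGN3 the 1 measured of 14 Casparian strip and suberin genes. WRKY53 had the smaller p of the 2 measured among 13 defence genes, so these lists were barely covered. LAC16 read near the bottom of the array, with 5.72% of all probe sets lower in Col-0. In erf115ko against Col-0, 0 of the 19 measured genes of all lists other than the peroxidases passed in limma, and 6 had an unadjusted p under 0.05.

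Markers of root hair cells moved in the same direction as PER49, PER62 and PER5. Of 8 root hair and epidermis markers, the expansins EXPA7 and EXPA18, which loosen walls of root hair cells, were measured and both rose, by 0.81 (SE 0.08, adjusted p = 0.000438) and 0.85 (SE 0.17, adjusted p = 0.0137). EXPA18 did not pass without Col-0 replicate 1, Col-0 replicate 2 or ERF115OE replicate 2 (adjusted p up to 0.0599). Their summed level lay between 8.85 and 9.30 in Col-0, between 9.05 and 9.16 in erf115ko, and between 9.76 and 10.002 in ERF115OE (log2). Col-0 replicate 3 and ERF115OE replicate 2, which held the highest values of most members, were also the highest of their genotype for the summed level of these expansins and for that of the 5 root hair peroxidases. Their part in the members' differences was not tested.

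Genes that react to touch and to fresh wounds went the other way. Of 10 listed, 3 were measured, and 2 fell in ERF115OE. The zinc finger gene STZ fell by 1.12 (SE 0.21, limma adjusted p = 0.0105). The calmodulin-like gene CML38 fell by 1.07 (SE 0.20), with an adjusted p of 0.0117. Both genes also stood below Col-0 in erf115ko, STZ at -0.69 (SE 0.21) with groups apart and CML38 at -0.52 (SE 0.20). Neither passed there (limma adjusted p = 0.835 and 0.9996). Between ERF115OE and erf115ko, 0 of the 3 were called, with STZ overlapping and CML38 wholly lower in ERF115OE. The summed level of STZ, CML37 and CML38 lay between 6.85 and 7.36 in Col-0, between 6.26 and 6.76 in erf115ko and between 5.69 and 6.34 in ERF115OE (log2). Of the stem cell niche markers, AGL42 was lower in the overexpressor by a log2 difference of -0.52 (SE 0.09), with a limma adjusted p of 0.00789, and BBM did not pass (-0.30, SE 0.14, adjusted p = 0.277). RNA integrity was read from the 3' minus 5' difference of control probe sets. As a mean over the control probe sets it lay between 3.10 and 3.34 for actin in ERF115OE and between 3.18 and 3.38 in the other genotypes. For GAPDH the mean of 2 control pairs lay between 0.35 and 0.44 in ERF115OE and between 0.45 and 0.63 in the others, without overlap. In each pair alone ERF115OE overlapped with Col-0 (0.47 to 0.78 against 0.68 to 1.05 in one pair, 0.11 to 0.24 against 0.17 to 0.23 in the other), and the mean was chosen after the first pair had been seen. In single pairs ERF115OE lay wholly below erf115ko for the first GAPDH pair, where erf115ko read 0.78 to 0.87 and the highest ERF115OE array 0.776. It did so too in the only actin pair read singly (1.96 to 2.14 against 2.19 to 2.24). In that actin pair Col-0 lay between 2.08 and 2.31. The actin mean also includes control probe sets outside that pair. The part of these measures in the members' differences was not tested.

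**Figure D4:**
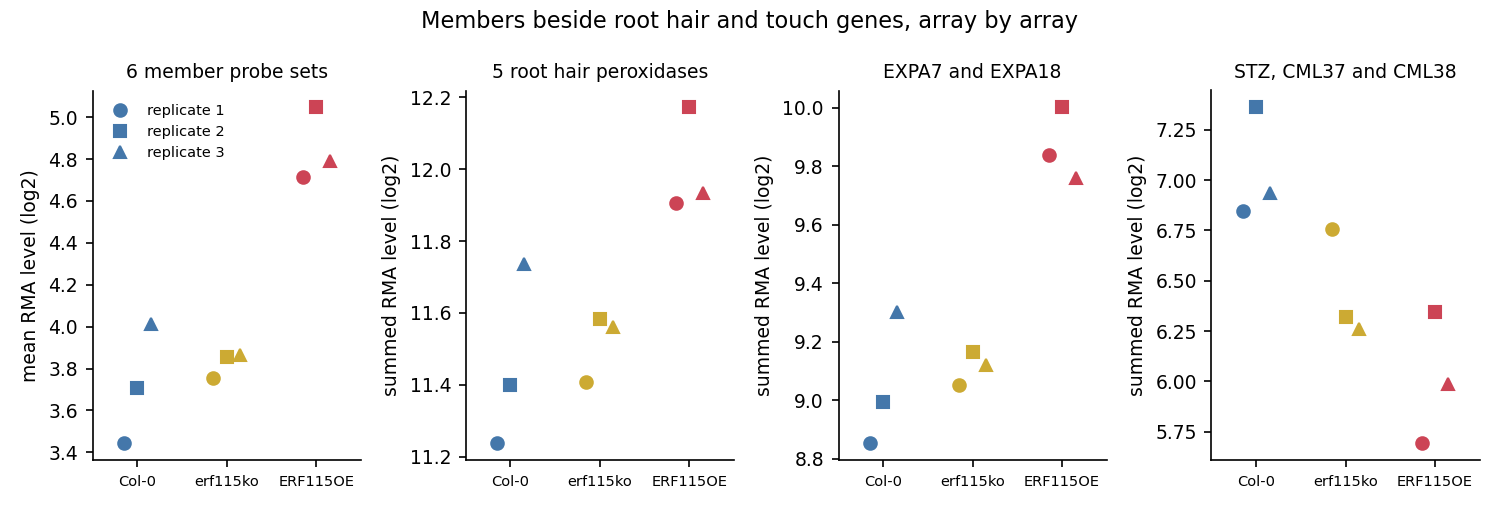
Mean RMA level of the 6 member probe sets, and summed RMA levels (log2, y axes with separate scales that do not start at 0) of 5 root hair peroxidases, of EXPA7 and EXPA18, and of STZ, CML37 and CML38, in each array. ERF115OE arrays are highest in the first 3 panels, and in the last panel they lie between 5.69 and 6.34, below all Col-0 arrays.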

How the data were processed

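The deposited table holds log2 values, which the authors made with RMA in affy 1.36, per the submitters' processing notes. It has 22810 probe sets on 9 arrays, of which 64 controls were left out. The array build is not given in the sources used here, so no coordinates are printed. Probe sets were named through GEO's platform annotation and the RefSeq gene table of TAIR10.1: 13513 had 1 gene (13436 matched a locus), 503 several and 8730 were unnamed here.

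The fit was made in R 4.3.3 with lmFit and eBayes of limma 3.58.1, using 1 mean per genotype and a shared spread (6 residual and 4.49 prior degrees of freedom). P-values were adjusted by Benjamini-Hochberg over the 22746 probe sets of each of 3 comparisons, with a threshold of 0.05. The median SE of a difference was 0.088, and precision is limited by how many arrays there are. The fit was tested on simulated data. Summed levels are log2 of the sum of unlogged values.

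The members and gene lists were chosen with earlier results of these data known. Named were all members and, of each other list, up to 4 genes that passed by smallest p, or else the 1 with the smallest p. PER40 was added for the size of its fall. Of 17 other lists, 5 had no measured gene: hydrogen peroxide and superoxide removal, jasmonate wound response, and the root cap, xylem and phloem markers. Alternatives were 2 normalizations, 2 filters on low values (the median, and 4 on the log2 scale), a trended prior, array weights, only the 6 arrays compared, the replicate number as a block, and leaving out each array. Counts of the gene lists were recomputed for the 2 comparisons with Col-0. Deviations of same-numbered arrays were weakly correlated (from -0.21 to 0.14), so the numbers were not taken as pairs. For erf115ko against Col-0 these correlations were all positive, from 0.096 to 0.14.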

Additional observations from a re-analysis of the deposited data

How the results depend on the processing

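PER49, PER62 and PER5 were called higher in ERF115OE than in Col-0 under each of the 17 alternatives except the median filter on low values. That filter leaves 1 of the 6 members in the fit and so gives 0 calls. With the log2 filter, PER49 and PER62 stayed in the fit only through ERF115OE, as their other arrays all read below 4. These calls are a description, since this comparison chose the members. The median filter also gave 0 against erf115ko, and single arrays left out gave 2 to 3 calls there. The 95 values of members in erf115ko against Col-0 under the alternatives held 0 calls (smallest adjusted p 0.637). The sign turned in 6, all with 1 array left out: the probe set of PER15 and PER14 (AT2G18150;AT2G18140) ranged from -0.32 to 0.052 and turned without Col-0 replicate 3, PER49 (AT4G36430) from -0.016 to 0.19 and turned without erf115ko replicate 2 or 3, PER52 (AT5G05340) from -0.14 to 0.013 and turned without Col-0 replicate 2 or 3, and PER62 (AT5G39580) from -0.095 to 0.29 and turned without Col-0 replicate 1. SGN3 (AT4G20140) in ERF115OE against Col-0 ranged from -0.040 to 0.29 and turned without Col-0 replicate 1. Of the member differences given as description, PER71 against Col-0 and PER52 against both genotypes changed sign with single arrays left out, and PER52 against erf115ko also with quantile normalization.

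With only the 6 arrays compared, which leaves fewer degrees of freedom, 2 root hair and 3 other peroxidases were higher, and 226 probe sets lower, in ERF115OE than in Col-0. With array weights 5 other peroxidases were lower. The causes were not tested. With single arrays left out, the counts against Col-0 were 522 to 976 higher and 226 to 377 lower over all probe sets, 1 to 5 higher root hair peroxidases, and 3 to 7 higher and 1 to 4 lower other peroxidases. With each array centred on its median, 56.7% of calls were higher, against 68.8% as deposited.

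In erf115ko against Col-0, where 1 probe set was higher and 2 lower, median centring and the median filter gave 2 higher, array weights 3 higher and 7 lower, the log2 filter 1 lower, the 6 arrays 0 lower, and single arrays left out 0 to 1 higher and 0 to 5 lower. For ERF115OE against erf115ko, array weights gave 1079 higher and 683 lower, against 602 and 235, and single arrays left out 280 to 695 and 75 to 262. With the replicate number as a block, 1 probe set was lower in erf115ko than in Col-0, HCT and KUA1 lost their call, CCR2 gained one that it had under no other alternative, the 3 member calls stayed, and 4 of 9 arrays correlated best with an array of their own number.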

Other observations

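A probe set shared by AT2G38380 (PER22) and AT2G38390 (PER23), which are no members, had the pattern of PER49 and PER62. Its levels were 3.61, 3.77 and 3.95 in Col-0, 3.67, 4.03 and 3.57 in erf115ko, and 5.25, 6.54 and 4.67 in ERF115OE, so that all overexpressor arrays lay above the other 6. It rose by 1.71 (SE 0.36, limma adjusted p = 0.0201), and did not pass without Col-0 replicate 1 or 2 (adjusted p up to 0.0744). The probe set cannot tell the 2 genes apart. It was singled out after its values were seen.

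Of the 10 listed loci, 5 lie directly beside another class III peroxidase gene in the RefSeq gene order. PER71 lies beside PER70, which stood at -0.19 (SE 0.08, adjusted p = 0.243) in ERF115OE against Col-0. The 6 member loci have 12 direct neighbours, of which 7 were measured. In ERF115OE against Col-0, 1 of these passed as higher and 0 as lower. That gene was AT5G39590, beside PER62, with a rise of 0.43 (SE 0.07, adjusted p = 0.00762), while the neighbours of PER49, AT4G36420 and AT4G36440, stood at -0.02 (SE 0.08, adjusted p = 0.927) and 0.03 (SE 0.06, adjusted p = 0.866).

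The 5 single-gene probe sets most like the mean of the members were those of AT5G40860, GH9C1, AT3G54040, AT4G19860 and AZG1. Their Pearson correlation with that mean over the 9 arrays was 0.988 to 0.995. This is a description of arrays that share 3 genotypes, and it follows largely from the level in ERF115OE.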
